A study of Homo sapiens with 32 samples.

Results

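The comparison described here is SM08502 against vehicle in HEC265 cells, an established line from a human endometrial adenocarcinoma whose labelled genotype is CTNNB1-mutated. It rests on 4 of the 32 libraries of the series, taken by the titles of the samples: 2 libraries of cells given 149 nM SM08502 for 24 h and 2 of cells given vehicle, which was 0.1% DMSO, for the same time. The other HEC265 libraries are 2 with 5.6 nM paclitaxel, a drug that stabilises microtubules, and 2 with 5.6 nM paclitaxel and 149 nM SM08502 together. The same 4 treatments, with other doses, were given to Ishikawa (CTNNB1 wild-type), Ishikawa-S33Y and SNGM (both CTNNB1-mutated). Each line was dosed at its own viability IC50, so that dose and line cannot be told apart. Cells were plated in duplicate and left to attach for 16 h before treatment. Nothing in the labels says that the duplicates were separate cultures. P-values therefore measure a spread between libraries that may be technical. The fit takes that spread from all 32 libraries, not from the 4 compared alone.

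SM08502 inhibits the CDC-like kinases (CLK1 to CLK4) and related DYRK kinases. CLKs phosphorylate serine- and arginine-rich (SR) proteins, which releases these splicing factors from nuclear speckles and changes which exons and introns are joined or kept. Transcripts of the CLK genes are themselves alternatively spliced, and part of them are held in the nucleus with introns retained. CTNNB1 encodes beta-catenin, which drives Wnt target genes such as AXIN2 when it is stabilised, and mutations that stabilise it are common in endometrial cancer.

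The 4 libraries held 22.5 and 25.9 M reads with vehicle and 22.4 and 27.7 M reads with SM08502 (M, 1000000 reads), so that 3 reads corresponded to 0.108 to 0.134 CPM, the reads of a gene scaled to a library of 1000000 reads. Genes with at least 1 read numbered 20248 and 20433 with vehicle and 20693 and 21168 with SM08502. Mitochondrial genes took 6.43% and 6.84% of reads with vehicle and 7.2% and 4.8% with SM08502. The 2 replicates of a group differed by 0.0699 (vehicle) and 0.0812 (SM08502) on the log2 scale, as a root mean square over 6083 genes of high level, and by 0.0699 to 0.594 over all groups of the series. Replicates differed by more than counting noise, with chi-square per degree of freedom of 2.38 and 11.4. In the HEC265 groups with paclitaxel and with the combination the root mean square was 0.0879 and 0.12. The fit takes its spread from all groups, so a gene steady in HEC265 can go uncalled. Combination replicate 2 of Ishikawa-S33Y and of SNGM, which enter that spread, held 2.99 and 1.61 M reads. Epithelial markers fitted the labelled cell type, with EPCAM at 257 CPM in both vehicle libraries and KRT8 at 934 and 904 CPM. Of 10 stromal markers, VIM was at 0.935 and 1.16 CPM with vehicle and LUM was at 0 in all 4 libraries, and the summed level of the list was 9.58 to 10.2 CPM with vehicle and 5.40 to 6.63 CPM with SM08502.

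SM08502 changed the level of 2494 of 17011 tested genes, which is 14.7% (limma, adjusted p under 0.05). Of these, 1577 were higher (9.27% of tested genes) and 917 were lower (5.39%). The calls were mostly of modest size: the median absolute log2 difference was 0.60, the smallest was 0.23, and 276 genes (1.62%) changed by at least 2-fold. Falls were more frequent than rises at that size, with 172 genes lower (1.01%) and 104 higher (0.611%). In every called gene both SM08502 libraries lay on the same side of both vehicle libraries, as they did for 45.1% of tested genes upward and 25.5% downward. Levels are shares of a library's reads, and in bulk samples fewer cells of a kind and less RNA per cell cannot be told apart. The more frequent direction over all calls depended on scaling: 63.2% of calls were higher as deposited, 39.3% after re-centring each library on its median, which moved the median of all genes by -0.10 on the log2 scale, and 47.5% after quantile normalization. With the spread taken from the 8 HEC265 libraries alone, 7026 genes (41.3%) were called, and 2464 of the 2494 calls (98.8%) were among them in the same direction.

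The 4 CLK genes rose, and limma called no other member of a list of 15 CLK, DYRK, HIPK and SR protein kinases; after re-centring 1 more was called, lower, and with the spread of HEC265 alone 6 were higher and 3 lower. CLK1 (chromosome 2, 200853009 to 200864658, GRCh38.p14) was at 15.1 and 16.3 CPM with vehicle and 60.5 and 54.5 CPM with SM08502, a log2 difference of 1.81 (SE 0.14, adjusted p = 8.60e-08). CLK3 (chromosome 15, 74608372 to 74630201) was at 29.0 and 29.3 CPM with vehicle and at 110.7 and 108.7 CPM with SM08502 (log2 1.88, SE 0.15, adjusted p = 9.51e-08). CLK4 (chromosome 5, 178602664 to 178627050) went from 11.3 and 11.5 to 37.6 and 38.9 CPM (log2 1.66, SE 0.16, adjusted p = 1.01e-06). CLK2 (chromosome 1, 155262868 to 155273504) rose less, from 23.7 and 24.6 to 37.9 and 35.0 CPM (log2 0.57, SE 0.12, adjusted p = 0.00249). Replicates of the CLK genes lay close together, and the groups were separate, as they were in every called gene. All 4 calls held in each of the 15 alternatives run for single genes. DYRK1A, a kinase of the related family that SM08502 also inhibits, was at 122 CPM in both vehicle libraries and at 125 and 121 CPM with SM08502 (log2 0.01, adjusted p = 1.00). Of the 15 kinases 26.7% were called, against 14.7% of all tested genes. Their median was 0.01, against 0.07 over all tested genes, and was -0.09 after re-centring.

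Among 26 SR proteins and SR-related factors 5 rose and none fell (19.2% called, against 14.7% of all tested genes). The median log2 difference was 0.04, and after re-centring 2 were higher and 2 lower. Fewer were higher without 1 of the 4 libraries, where calls over all tested genes were fewer too. The rise of RSRP1, a small arginine- and serine-rich protein, from 14.4 and 11.6 to 24.6 and 22.8 CPM was the largest (log2 0.83, SE 0.12, adjusted p = 9.16e-05), and it overlaps RHD. RSRC2 and PNISR, further proteins with SR domains, rose by log2 0.50 and 0.44. SRSF6 rose by 0.26 (adjusted p = 0.0411), a call lost in 8 of 15 alternatives. The canonical factor SRSF1 was at 377 CPM in both vehicle libraries and at 369 and 386 CPM with SM08502 (log2 0.00, adjusted p = 1.00). SRSF3 was at 470 and 471 CPM with vehicle and 401 and 399 CPM with SM08502. Its difference of -0.24 was not called (SE 0.14, adjusted p = 0.300), but limma with the spread of HEC265 alone gave an adjusted p of 0.00412. RSRC2 had an adjusted p of 0.0504 without SM08502 replicate 1, and PNISR of up to 0.102, also without that library.

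PRPF3, a protein of the U4/U6 particle, increased from 32 and 30.9 to 65.2 and 65.0 CPM (log2 1.03, SE 0.12, adjusted p = 1.11e-05). PRPF8, the large scaffold at the catalytic core, fell from 1219 and 1188 to 648 and 671 CPM (log2 -0.87, SE 0.25, adjusted p = 0.0204). Of 28 core spliceosome genes 6 rose and 1 fell (25% called, against 14.7% of all tested genes), with a median of 0.24, and after re-centring 4 rose and 3 fell; without 1 library 1 to 2 rose and none fell. HNRNPD, which binds AU-rich elements in mRNA, was at 307 and 306 CPM with vehicle and 149 and 156 CPM with SM08502 (log2 -1.0, SE 0.13, adjusted p = 2.79e-05), and its relative HNRNPDL fell by 0.67. HNRNPH1 rose by 0.39, and no other of the 25 hnRNP genes was called by limma (12% called). Without 1 of the 4 libraries, whichever it was, PRPF8 (adjusted p up to 0.119) and SF3B4 (log2 0.53, up to 0.166) were no longer called, and HNRNPH1 lost its call without SM08502 replicate 2 and after re-centring (up to 0.0717).

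Kinases and cyclins of the transcription machinery included 5 rises among 18 members and no fall (27.8% called, against 14.7% of all tested genes). Their median was 0.31, against 0.07 over all tested genes. CDK9, the kinase that releases paused RNA polymerase II, went from 41.8 and 43.6 CPM to 87.4 and 89.0 CPM (log2 1.03, SE 0.13, adjusted p = 1.70e-05). Its partner CCNT2 rose by 0.43 (adjusted p = 0.0701 after re-centring), and CDK11A rose by 0.64 and CCNL1 by 0.31. The calls of CDK11A and CCNL1 were lost when any 1 of the 4 libraries was left out, with adjusted p of up to 0.251 and 0.373. After re-centring 2 of the 18 were higher and 1 was lower, and 2 to 3 were higher without 1 library.

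Nonsense-mediated decay (NMD) removes transcripts with early stop codons, including many products of altered splicing. Of 16 NMD factors 5 rose and none fell (31.2% called, against 14.7% of all tested genes), with a median of 0.25. Among them RBM8A, a protein of the exon junction complex, went from 77.5 and 82.2 to 134 and 140.3 CPM (log2 0.77, adjusted p = 3.46e-04). UPF3B rose by 0.72 and SMG8 by 0.52, and the count was 2 after quantile normalization and 1 to 2 without 1 library. UPF3B lost its call without any 1 of the 4 libraries (adjusted p up to 0.177), and SMG8 without SM08502 replicate 2 or either vehicle library (up to 0.192). Of 16 transcripts known to be NMD-sensitive, only 6 had values in the deposited data. The others, noncoding RNAs such as GAS5 and ZFAS1, were absent. Of the 6, TBL2 was higher (0.58) and CARS was lower (-0.56), and each lost its call in some fits without 1 library.

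The largest rises are given for called genes with a mean log2(CPM + 1) of at least 2, no overlap between the groups and no clone name. KRTAP3-1 (chromosome 17, 41008521 to 41009128), which encodes a keratin-associated protein of the hair shaft, was at 12.5 and 11.4 CPM with vehicle and 63.9 and 72.9 CPM with SM08502 (log2 2.42, SE 0.14, adjusted p = 5.99e-10). KRTAP2-3, the next tested gene 50.1 kb away, rose from 19.2 and 20.3 to 57.2 and 60.6 CPM (log2 1.53, SE 0.33, adjusted p = 0.00321, and 0.193 with a pseudocount of 0.1). Genes of both families have close copies nearby, so that the assignment of reads among copies is uncertain. CCDC150P1 (chromosome 12, 122322174 to 122323847), a pseudogene that lies within CLIP1, went from 2.63 and 2.86 to 19.2 and 21.2 CPM (log2 2.50, SE 0.34, adjusted p = 3.48e-05). CLIP1 itself was at a mean of 126 and 128 CPM, and reads of the pseudogene and its host cannot be told apart where the strand of counting is not given. DDX11L2, of a family of near-identical copies at chromosome ends, rose by 2.09.

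CD68 (chromosome 17, 7579638 to 7582111), a lysosomal membrane protein best known from macrophages, was at 8.99 and 8.42 CPM with vehicle and 34.3 and 38.7 CPM with SM08502 (log2 1.95, SE 0.19, adjusted p = 8.08e-07). It was 1 of 10 immune markers looked at and made up most of their summed level, which was 9.65 to 10.1 CPM with vehicle and 36.1 to 40.4 CPM with SM08502. The pan-leukocyte gene PTPRC was at 0.849 to 1.03 CPM in the 4 libraries, CD3E was at 0 in all of them, and CD14 had 0 to 0.446 CPM. The neighbour EIF4A1, 0.631 kb from CD68, had a log2 difference of 0.09 (adjusted p = 0.784). Of 8 endothelial markers ESAM was called (log2 0.89, adjusted p up to 0.308 under the alternatives), KDR was at 0 in all 4 libraries, and the summed level was 4.87 to 5.34 CPM with vehicle and 8.97 to 10.7 CPM with SM08502.

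PYCARD (chromosome 16, 31201486 to 31202760), the adaptor ASC of inflammasomes, rose from 0.445 and 0.463 to 5.04 and 3.71 CPM (log2 1.88, SE 0.21, adjusted p = 4.92e-06). Its mean level was below that required of the largest rises. Of 6 inflammasome and pyroptosis genes tested limma called 1, PYCARD (16.7%, against 14.7% of all tested genes), and limma voom 2. CASP1, NLRP3 and AIM2 did not pass the filter on low values. The list of largest rises was completed by DNHD1 (log2 1.62), KLHL31 (1.54), SRRM5 (1.52, adjusted p up to 0.110 without 1 library) and CXorf38 (1.50). SRRM5 overlaps ZNF428. RRP8, which lies 23.1 kb from DNHD1, rose by 0.94, while the nearer TIMM10B, at 12.6 kb, had a log2 difference of -0.56 (adjusted p = 0.00317). CLK3, CD68, PYCARD and FOXJ1 each overlap an antisense gene, with the same limit on assigning reads.

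**Figure D1:**
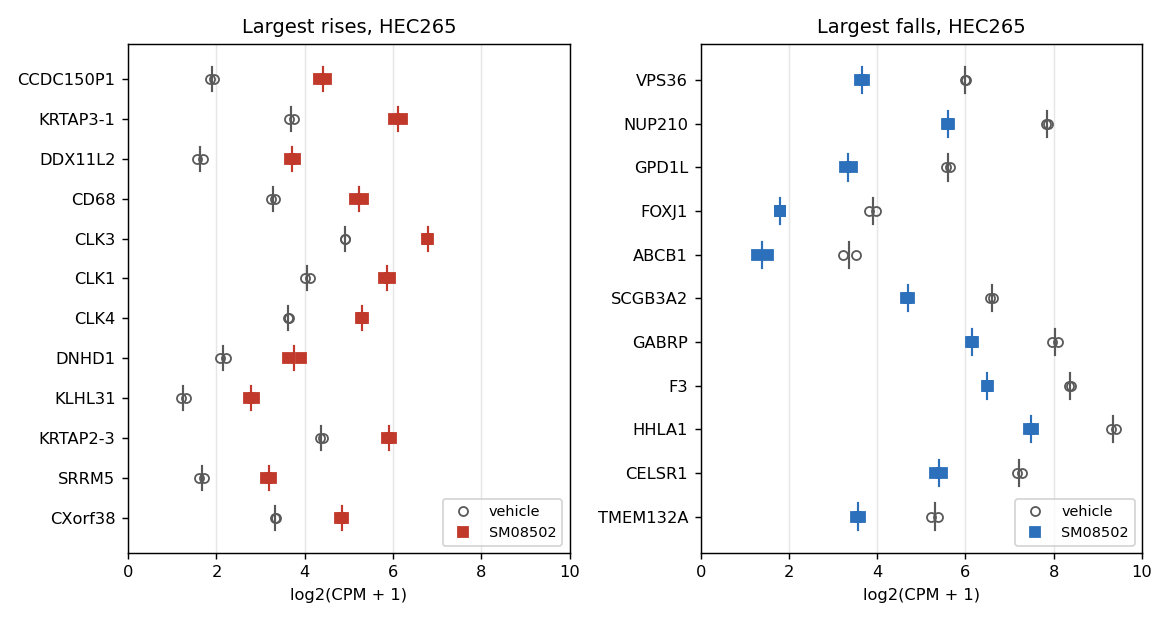
Levels of the 12 genes with the largest rises (left) and 11 of the 12 with the largest falls (right) in HEC265, as log2(CPM + 1) on the horizontal axis. Genes were taken among called genes with a mean log2(CPM + 1) of at least 2, no overlap between the groups and no clone name. Open circles are the 2 vehicle libraries, filled squares the 2 SM08502 libraries and vertical ticks the group means. The log2 differences go from 2.50 (CCDC150P1) to 1.50 (CXorf38) and from -2.34 (VPS36) to -1.74 (TMEM132A).

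VPS36 (chromosome 13, 52412606 to 52450634), a subunit of the ESCRT-II complex that sorts membrane cargo into endosomes, dropped from 62.1 and 63.6 to 11.3 and 12 CPM (log2 -2.34, SE 0.12, adjusted p = 1.87e-10). The nuclear pore protein gene NUP210 (chromosome 3, 13316235 to 13420322) was at 234 and 227 CPM with vehicle and 48.1 and 46.6 CPM with SM08502 (log2 -2.26, SE 0.27, adjusted p = 1.04e-05). F3 (chromosome 1, 94529173 to 94541759), which encodes tissue factor, the starter of coagulation, was at 335 and 325 CPM with vehicle and 90.6 and 88.2 CPM with SM08502 (log2 -1.87, SE 0.12, adjusted p = 3.62e-09). In these genes the replicates were nearly equal and the groups lay far apart.

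FOXJ1 (chromosome 17, 76136333 to 76141245), the regulator of motile cilia, fell from 14.8 and 13.0 to 2.50 and 2.45 CPM (log2 -2.10, SE 0.20, adjusted p = 8.08e-07). RNF157, 1.23 kb away, fell as well (log2 -1.16). SCGB3A2, a secretoglobin of airway epithelium, went from 98.1 and 93.4 to 25.5 and 24.2 CPM (log2 -1.91, adjusted p = 1.87e-04). GABRP, a GABA receptor subunit of reproductive tissues, was at 271 and 247 CPM with vehicle and 71.2 and 68.7 CPM with SM08502 (log2 -1.87, adjusted p = 0.00210). HHLA1 fell by 1.87 on the log2 scale, CELSR1, an atypical cadherin of planar polarity, by 1.83, GPD1L by 2.26 and TMEM132A by 1.74.

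ABCB1 (chromosome 7, 87503017 to 87713295) encodes P-glycoprotein, the efflux pump that exports paclitaxel among other drugs. It was at 8.28 and 10.4 CPM with vehicle and 1.88 and 1.41 CPM with SM08502 (log2 -1.97, SE 0.33, adjusted p = 3.60e-04). ABCB1 overlaps RUNDC3B, which was at a mean of 0.435 CPM with vehicle and 0.493 CPM with SM08502. The call held in all alternatives run.

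VPS36 is 1 of 28 ESCRT genes tested. The other ESCRT-II subunits, VPS25 and SNF8, had log2 differences of 0.17 and 0.14 and were not called (adjusted p = 0.417 and 0.616). Of the 28 genes 6 rose and 2 fell (28.6% called, against 14.7% of all tested genes), with a median of 0.20. CHMP2A, an ESCRT-III subunit, rose from 24.7 and 23.7 to 38.8 and 40.1 CPM (log2 0.68, adjusted p = 8.03e-05). After re-centring 2 rose and 2 fell, and without 1 library 1 to 3 rose and 1 fell. CHMP5, called at 0.51, had an adjusted p of 0.234 after re-centring and lost its call without any 1 of the 4 libraries.

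Of 19 tested Wnt targets limma called 1 (5.26%, against 14.7% of all tested genes), NOTUM, a secreted enzyme that inactivates Wnt ligands, which went from 19.7 and 20.4 to 12.3 and 9.95 CPM (log2 -0.80, SE 0.18, adjusted p = 0.00496, and 0.0956 without SM08502 replicate 2). AXIN2 was at 144 and 145 CPM with vehicle and 133 and 131 CPM with SM08502 (log2 -0.13, SE 0.18, adjusted p = 0.751). MYC had a difference of 0.11 (SE 0.13), CCND1 of 0.17 (SE 0.22) and CTNNB1 itself of 0.12 (SE 0.12), and none was called. LEF1, TNFRSF19 and BMP4 had differences of -0.49 each without passing the threshold. The median of the targets was -0.06. The count depended on the fit: 2 were lower after re-centring, 4 with limma voom and 3 on top of paclitaxel, and with the spread of HEC265 alone, which called 41.3% of all genes, 6 were lower and 2 higher.

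Calls among Wnt pathway components were at the receptors, and their share was near that of all tested genes (15.4% and 14.7%). LRP5, the co-receptor gene, was at 118 CPM in both vehicle libraries and 41.7 and 38.8 CPM with SM08502 (log2 -1.53, SE 0.33, adjusted p = 0.00268), whereas its homologue LRP6 differed by 0.09 (adjusted p = 0.773). FZD2 fell from 16.3 and 14.6 to 8.79 and 7.96 CPM (log2 -0.81, adjusted p = 0.00114), FZD6 by 0.48 on the log2 scale and FZD4 by 0.52. Without any 1 of the 4 libraries FZD6 (adjusted p up to 0.210) and FZD4 (up to 0.188) were not called, which left 2 of the 4. Of 26 components 4 were lower (against 5.39% of all tested genes), none was higher (against 9.27%), and the median was -0.05. No member of the destruction complex on the list, APC, AXIN1, GSK3A, GSK3B or CSNK1A1, was called.

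Of 20 p53 targets 12 rose and none fell, which is 60% called against 14.7% of all tested genes, and the median log2 difference was 0.51 against 0.07. FDXR, a mitochondrial reductase gene, went from 15.7 and 16.8 to 34.5 and 35.6 CPM (log2 1.07, SE 0.14, adjusted p = 2.69e-05). BTG2, an antiproliferative factor, was at 46.8 and 43.2 CPM with vehicle and 87.0 and 88.3 CPM with SM08502 (log2 0.95, SE 0.13, adjusted p = 2.76e-05). CDKN1A, which encodes the cell cycle inhibitor p21, was at 429 and 404 CPM with vehicle and 726 and 750.2 CPM with SM08502 (log2 0.82, adjusted p = 1.28e-04). As in every gene called higher, each SM08502 value was above each vehicle value in these 3 genes, here by far more than the replicate spread. MDM2, the ubiquitin ligase of p53, rose by 0.36, SESN1 by 0.67, AEN by 0.76 and PLK3 by 0.84. The count was 11 after re-centring, 12 after quantile normalization and 7 to 8 when 1 of the 4 libraries was left out. MDM2 had an adjusted p of up to 0.116 when 1 library was left out, BAX (0.41) of up to 0.0790, PLK3 of up to 0.133 and BBC3 (0.78) of up to 0.0969.

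In the BCL2 family, which sets the threshold for apoptosis, 3 of 15 genes rose and 1 fell (26.7% called, against 14.7% of all tested genes). The antiapoptotic BCL2 fell from 29.6 and 28.0 to 14.9 and 18.3 CPM (log2 -0.76, SE 0.14, adjusted p = 5.42e-04). The rises were the proapoptotic BBC3, BAX and BAK1, of which BBC3 and BAX also stand in the p53 list, and BAK1 was called at 0.56 with an adjusted p of up to 0.184 without 1 library. MCL1, an antiapoptotic gene with a known short splice form, was at 207 and 202 CPM with vehicle and 248 and 245 CPM with SM08502 (log2 0.27, SE 0.11, adjusted p = 0.108). After re-centring 2 were higher and 4 lower, and without 1 library 0 to 1 were higher.

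CCNB1 and CCNB2, the cyclins of mitotic entry, fell by 0.48 and 0.65 on the log2 scale, and the other 18 of 20 mitosis and spindle genes were not called (median -0.22), which is 10% called; with the spread of HEC265 alone 10 were lower and 2 higher. CCNB1 was not called when any 1 library was left out (adjusted p up to 0.160). Among 25 replication genes 3 rose and 1 fell (16% called): TK1 rose by 0.54 and POLA1, the catalytic subunit of polymerase alpha, fell by 0.59, from 84.8 and 84.2 to 54.7 and 57.2 CPM. ORC1 rose by 0.39 (adjusted p up to 0.185 without 1 library). None of 22 replication-dependent histone genes was called by limma or by limma voom, 0 had an unadjusted p under 0.05, and their median was -0.15. Of 24 DNA repair genes 5 rose and 1 fell (25% called), among them RBBP8 (0.50) and RAD51C (0.55) upward, with 2 higher and 3 lower after re-centring and 2 to 3 higher without 1 library.

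Receptor tyrosine kinases accounted for the falls in a list of 24 receptor and MAPK pathway genes. In it 6 fell and 3 rose (37.5% called, against 14.7% of all tested genes), with a median of -0.16. FGFR2 (chromosome 10, 121478330 to 121598458), a fibroblast growth factor receptor of endometrial epithelium, was at 115 and 117 CPM with vehicle and 50.5 and 48.9 CPM with SM08502 (log2 -1.21, SE 0.16, adjusted p = 2.09e-05). FGFR3 fell from 21.5 and 19.7 to 10.0 and 8.54 CPM (log2 -1.07, adjusted p = 2.48e-04), FGFR1 fell by 0.82 on the log2 scale and FGFR4 by 0.81, so that all 4 FGFR genes were lower. FGFR1 was not called when any 1 of the 4 libraries was left out (adjusted p up to 0.120), nor was ERBB3 (up to 0.155), and the list then had 3 to 4 falls. ERBB2 went from 150.1 and 145 to 83.1 and 82.5 CPM (log2 -0.83, adjusted p = 0.00592, and up to 0.0546 without 1 library), and ERBB3 fell by 0.65. EGFR (log2 -0.45, SE 0.32, adjusted p = 0.427), MET (-0.38, adjusted p = 0.109) and IGF1R (-0.44, adjusted p = 0.330) were not called. HRAS, BRAF and DUSP6 rose by 0.79, 0.44 and 0.40, with adjusted p of up to 0.0536, 0.0971 and 0.276 without 1 library.

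Of 20 genes of PI3K, AKT and mTOR signalling 5 fell and 1 rose (30% called, against 14.7% of all tested genes). Fewer were called without 1 library. TSC2, which restrains mTOR, was at 48.1 and 42.7 CPM with vehicle and 23.3 and 20.9 CPM with SM08502 (log2 -1.01, SE 0.22, adjusted p = 0.00338). TSC2 overlaps PKD1 at its end. PIK3R1 rose by 0.44, a call lost without any 1 of the 4 libraries (adjusted p up to 0.167). In the TGF-beta and BMP list 3 of 20 fell and 1 rose (20% called). SMAD6, an inhibitor of BMP signalling, went from 44.4 and 41.8 to 22.7 and 23.9 CPM (log2 -0.86, adjusted p = 0.00318). TGFB2 fell by 0.74 (adjusted p up to 0.196 without 1 library), and ID3 rose by 0.55 (up to 0.0595 after quantile normalization).

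In a list of 20 NF-kappaB and chemokine genes 6 rose and none fell (30% called, against 14.7% of all tested genes), with a median of 0.35. NF-kappaB factors bind short GC- and T-rich sites, and the promoters of 3 of the genes that rose are shown because each holds an exact match to 1 of 2 such sites within 250 bases before the RefSeq start (GRCh38.p14, read 5′ to 3′ on the strand of the gene, with the match in capitals). CXCL8 lies at chr4:73740319-73740568 on the plus strand, NFKBIA at chr14:35404750-35404999 on the minus strand and NFKB2 at chr10:102395455-102395704 on the plus strand.
CXCL8: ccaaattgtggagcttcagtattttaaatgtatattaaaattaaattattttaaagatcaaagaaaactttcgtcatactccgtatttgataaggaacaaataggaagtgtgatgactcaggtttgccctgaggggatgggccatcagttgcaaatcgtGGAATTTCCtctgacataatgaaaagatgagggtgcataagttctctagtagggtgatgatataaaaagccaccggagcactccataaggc
NFKBIA: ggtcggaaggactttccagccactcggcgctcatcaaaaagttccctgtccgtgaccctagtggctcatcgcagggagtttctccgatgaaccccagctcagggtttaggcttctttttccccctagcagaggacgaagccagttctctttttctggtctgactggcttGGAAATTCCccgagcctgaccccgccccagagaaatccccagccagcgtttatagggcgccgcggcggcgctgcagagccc
NFKB2: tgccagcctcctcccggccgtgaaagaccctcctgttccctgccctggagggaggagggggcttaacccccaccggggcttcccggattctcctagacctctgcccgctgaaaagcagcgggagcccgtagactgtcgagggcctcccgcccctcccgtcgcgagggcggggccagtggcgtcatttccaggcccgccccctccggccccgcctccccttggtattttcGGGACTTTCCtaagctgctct
The CXCL8 match begins 91 bases before the start, that of NFKBIA, on the opposite strand, 81 bases and that of NFKB2 21 bases before it. Searched on both strands, GGAATTTCC is present in 0.413% of 35116 promoter entries of this length. It is present in 7 of the 16 list genes with a promoter in the table. The kappaB site of the immunoglobulin kappa enhancer, the match in NFKB2, is present in 0.179% and in 2 of 16, and neither site contains the other. A gene can have several entries (NFKB2 has 3) and counts if any of them holds a match, so these shares differ in unit. The list was made of NF-kappaB genes, so an excess of such sites in it is no result of these data. Both list counts include genes that were not called, such as CXCL1 and CXCL3, which were at 0 in all 4 libraries, and a match is no measurement of binding.

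CXCL8, the neutrophil chemokine, was at 126 and 118 CPM with vehicle and 215 and 224 CPM with SM08502 (log2 0.84, SE 0.23, adjusted p = 0.0170). BIRC3, an inhibitor of apoptosis that NF-kappaB induces, went from 63.7 and 61.3 to 126 and 127 CPM (log2 1.01, SE 0.17, adjusted p = 4.29e-04). Of the pathway's own subunits RELB rose from 12.4 and 11.8 to 21.8 and 24.6 CPM (log2 0.89, adjusted p = 5.84e-04) and NFKB2 from 35.4 and 37.1 to 59.2 and 62.3 CPM (log2 0.73, adjusted p = 0.0418). The inhibitor NFKBIA rose from 113 and 107 to 151 and 152 CPM (log2 0.46), and TNF rose by 0.66. The groups were separate in these 6 genes, as they were in every called gene. IL6, CCL2 and IL1B were not called. CXCL8 lost its call in 7 alternatives, among them every one without 1 of the 4 libraries, with an adjusted p of up to 0.148, and NFKB2 in every one of those (up to 0.198). After quantile normalization, and without 1 library, 4 of the list were called.

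Immediate early genes are transcribed within minutes of many stimuli. Of 20 such genes 7 rose and 1 fell (40% called, against 14.7% of all tested genes), with a median of 0.32. IER3 was at 56.8 and 57.4 CPM with vehicle and 107 and 111 CPM with SM08502 (log2 0.92, SE 0.12, adjusted p = 2.90e-05), ATF3 went from 7.88 and 8.92 to 16.9 and 14.7 CPM (log2 0.84, adjusted p = 5.27e-04), and JUN and JUNB rose by 0.61 and 0.67, JUN with an adjusted p of up to 0.191 without 1 library. Without 1 library 4 to 5 rose. FOS went the other way, from 19.0 and 16.3 to 9.91 and 7.39 CPM (log2 -0.96, SE 0.17, adjusted p = 6.52e-04). Among 20 interferon-stimulated genes 4 rose and 2 fell (30% called), with OAS3 up by 0.71. Without 1 library the list had 1 to 2 rises and 1 fall. ISG15 and IRF7 were called at 0.94 and 0.81, with adjusted p of up to 0.242 and 0.267 without 1 library, and OAS3 had 0.155 with a pseudocount of 0.1.

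Cholesterol synthesis was the list with the largest share of falls. Of its 20 genes 9 fell, which is 45.0% against 5.39% of all tested genes, none rose, and the median was -0.38. LSS, which closes the sterol ring, fell from 20.8 in both vehicle libraries to 9.06 and 9.98 CPM (log2 -1.05, SE 0.20, adjusted p = 9.35e-04). SQLE was at 113 and 116 CPM with vehicle and 75.5 and 76.1 CPM with SM08502 (log2 -0.59, adjusted p = 0.0211, and up to 0.123 without 1 library). FDFT1, which makes squalene, fell by 0.56 and INSIG1 by 0.55 on the log2 scale. The transcription factor genes SREBF1 (0.13, adjusted p = 0.789) and SREBF2 (-0.48, adjusted p = 0.0958) were not called. The count was 9 after re-centring, 8 after quantile normalization and 4 to 5 when 1 of the 4 libraries was left out. INSIG1 then had an adjusted p of up to 0.0567. CCAAT, searched on both strands, occurs in 12 of the 15 list genes with a promoter in the table and in 32% of all promoter entries. A longer motif searched for the same list occurs in 1 of the 15, SREBF2, and in 0.0342% of all entries. A further motif was searched for the immediate early genes and the CLK and DYRK kinases. It occurs in 2 of 16 and 0 of 12 of them, and in 1.65% of all entries. Shares of genes and of entries differ in unit, as above.

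The integrated stress response list, genes that ATF4 induces when translation is limited, had 5 falls and 2 rises among 19. This was 36.8% called, against 14.7% of all tested genes. The amino acid enzymes ASNS, PSAT1 and SHMT2 fell by 0.51, 0.49 and 0.51 on the log2 scale, and VLDLR from 98.9 and 105 to 58.7 and 58.1 CPM (log2 -0.79, adjusted p = 0.00186). SLC3A2, a subunit of amino acid transporters, rose from 224 and 226 to 332 and 341 CPM (log2 0.58). PSAT1 had an adjusted p of 0.0511 without SM08502 replicate 2, and 3 to 4 of the falls were called without 1 library. ATF4 (-0.12, adjusted p = 0.558) and DDIT3 (0.02, adjusted p = 1.00) were not called. Of 20 chaperones 2 rose and 1 fell (15% called, near the 14.7% of all tested genes). DNAJB1 and DNAJA1 were called at 0.39 and 0.35 and HSP90B1 at -0.72, and each lost its call in some fits without 1 library. The rises numbered 4 after quantile normalization and with limma voom, and 11 with the spread of HEC265 alone. In the hypoxia list of 20, 4 fell and 2 rose (30% called). PDK1 fell by 0.78 and VEGFA by 0.58, and ANKRD37 rose by 0.83. VEGFA and ANKRD37 lost their calls in some fits without 1 library, and fewer of the falls were then called.

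Of 24 ribosomal protein genes 1 rose (4.17%), RPS23 (log2 0.57, adjusted p up to 0.124 after re-centring), and none of 8 nuclear long noncoding RNA and paraspeckle genes was called by limma (2 had an unadjusted p under 0.05, and limma voom called 1). Of 20 hormone and nuclear receptor genes 1 rose and 2 fell (15% called, near the 14.7% of all tested genes). NR1H2 rose by 0.81, and NR1D2, a clock repressor, fell from 170.4 and 163 to 106 and 109 CPM (log2 -0.63). THRB fell from 0.979 and 1.00 to 0.179 and 0.144 CPM, a level of a few reads, and lost its call without SM08502 replicate 2. Among 15 epithelial markers 2 fell and none rose (13.3% called). CDH1, the E-cadherin gene, fell from 565 and 574 to 342 and 361 CPM (log2 -0.70, adjusted p = 0.0269). FOXA2 fell by 0.51 on the log2 scale, while EPCAM was not called. Both calls were lost without any 1 of the 4 libraries (adjusted p up to 0.151 and 0.320). The falls in this list numbered 6 after re-centring, 5 with limma voom, 3 after quantile normalization and 8 with the spread of HEC265 alone.

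**Figure D2:**
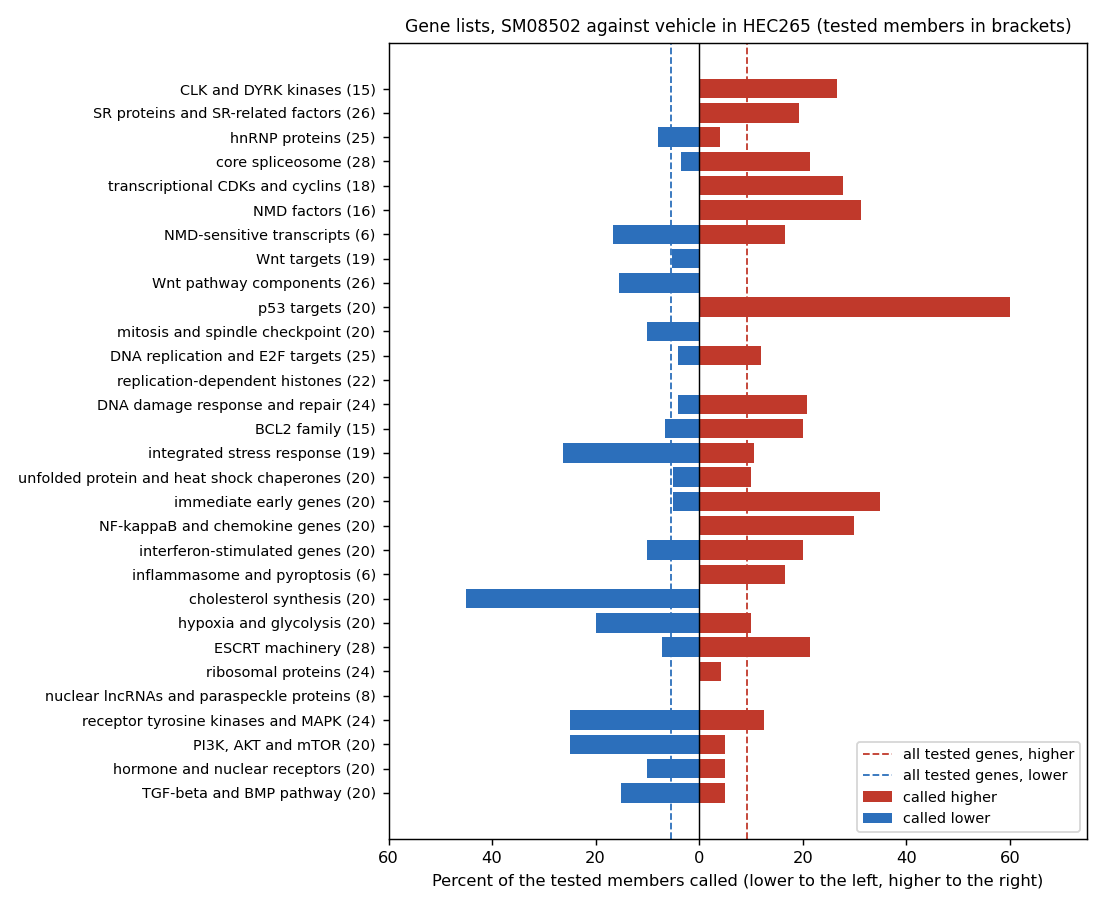
Percent of the tested members of each gene list called higher (red, to the right) or lower (blue, to the left) with SM08502 against vehicle in HEC265; dashed lines give the same percent over all 17011 tested genes (9.27% higher, 5.39% lower). The p53 targets have the longest bar to the right (60%) and cholesterol synthesis the longest to the left (45.0%).

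The 4 HEC265 libraries with paclitaxel hold a second measurement of SM08502 that shares no library with the first: the combination against paclitaxel alone. This called 2538 genes (14.9%), 1428 higher (8.39%) and 1110 lower (6.53%), and 2.03% changed by at least 2-fold (0.752% higher, 1.28% lower). Of the 2494 calls against vehicle, 1943 were called in the same direction, which is 77.9% of the first list and 76.6% of the second, and 0 were called in opposite directions. Both comparisons took the same spread for each gene from the same fit. Genes of small spread are therefore favoured in both, and the calls that overlap are not independent. The sign was the same for 2488 of the 2494 calls (99.8%), against 82.8% of all tested genes. Of the 276 calls of at least 2-fold, 264 were shared (95.7%). CLK1 was at 19.0 and 20.0 CPM with paclitaxel and 61.4 and 63.2 CPM with the combination, close to its levels without paclitaxel. ABCB1 was at 6.86 and 7.33 CPM with paclitaxel and 1.24 and 0.382 CPM with the combination (log2 -2.20, adjusted p = 1.12e-04). KRTAP3-1 went from 18.3 and 19.5 to 80.6 and 81.6 CPM (log2 2.05) and VPS36 differed by -2.25.

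The p53 list showed fewer calls on top of paclitaxel: 4 of 20 rose, CDKN1A, FDXR, PLK3 and AEN, and the median was 0.16. The summed level of the 20 genes was 1735 and 1691 CPM with vehicle, 2456 and 2503 CPM with SM08502, 2142 and 2146 CPM with paclitaxel and 2467 and 2357 CPM with the combination. Thus paclitaxel libraries lay between vehicle and SM08502, and the combination lay near SM08502 alone. BTG2 was at 62.9 and 63.6 CPM with paclitaxel and 78.5 and 72.6 CPM with the combination, a log2 difference of 0.25 (adjusted p = 0.207) against 0.95 without paclitaxel. The difference between these responses was -0.70 (SE 0.18, adjusted p = 1.00). In that test of the interaction, limma called 0 genes, 106 (0.623%) had an unadjusted p under 0.05, and limma voom called 0. If no gene had an interaction, 5% would be expected by definition. The test was thus conservative in HEC265, and 0 calls do not show that the responses were equal. In contrast to the p53 list, cholesterol genes had 10 falls of 20 on top of paclitaxel, with a median of -0.35. The NF-kappaB list had 5 rises of 20 there and a median of 0.36.

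**Figure D3:**
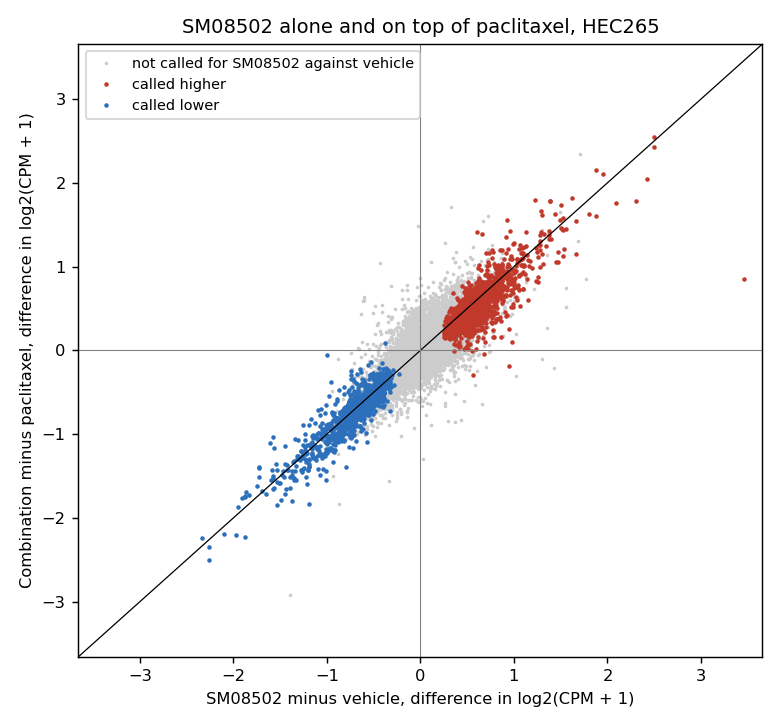
Each point is 1 of 17011 tested genes in HEC265, with the log2 difference of SM08502 against vehicle on the horizontal axis and of the combination against paclitaxel on the vertical axis; red and blue points were called higher or lower on the horizontal axis and the line marks equality. The called points lie along the line, with the same sign on both axes for 99.8% of them.

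In the other lines, which have vehicle controls of their own and other doses, the HEC265 calls recurred to different extents. Of the 2494 calls, 1395 were called in the same direction in Ishikawa-S33Y (85 nM), which is 55.9% of the HEC265 calls and 28.2% of those of Ishikawa-S33Y, where 29.1% of tested genes were called. The number was 864 in Ishikawa (80 nM; 34.6% and 33.5%), where 15.2% of tested genes were called, and 597 in SNGM (350.7 nM; 23.9% and 44.7%), where 7.86% were. Calls in opposite directions numbered 70, 31 and 30. In all 3 other lines 284 of the calls (11.4%) recurred, and 798 (32%) were called in none of them in the same direction, which does not show a different response there. All 4 CLK genes were called higher in all 3 lines. CLK2, for example, rose by 0.55, 0.38 and 0.66 in Ishikawa, Ishikawa-S33Y and SNGM.

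The difference between the HEC265 response and the mean response of the other 3 lines was tested directly, and 442 genes (2.6%) passed, 234 with a higher (1.38%) and 208 with a lower (1.22%) response in HEC265, and 0.541% differed by at least 2-fold. Doses differ between the lines, so that the line and its dose cannot be told apart here. COL7A1, the anchoring fibril collagen, had the largest negative difference: it fell in HEC265 from 24.0 and 23.7 to 14.1 and 9.51 CPM (log2 -0.98, SE 0.21), while the differences were 1.03 in Ishikawa, 0.91 in Ishikawa-S33Y and 1.46 in SNGM. The contrast was -2.11 (SE 0.24, adjusted p = 4.63e-05), while the fall within HEC265 had an adjusted p of 0.0924 without SM08502 replicate 2. KIF21B, a kinesin motor, fell in HEC265 from 20.3 and 19.7 to 5.45 and 6.74 CPM (log2 -1.57), and its values in the other lines were 0.29 to 0.45. CTGF, a matrix protein and target of YAP, had -0.53 in HEC265 against 0.34 to 1.57 elsewhere (adjusted p of the contrast 3.79e-05). PDZK1, a scaffold of membrane transporters, had -1.51 against 0.00 to 0.55. ABCB1 had -1.97 against -0.25, -0.04 and 0.04, a contrast of -1.89 (SE 0.39, adjusted p = 0.00884).

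Upward, KRTAP3-1 had the largest difference, with 2.42 in HEC265, 1.11 in Ishikawa-S33Y, 0.17 in Ishikawa and -0.14 in SNGM (contrast 2.04, SE 0.16, adjusted p = 4.88e-07). CD68 was above 0 in each line, with 1.95 in HEC265 and 0.56, 0.71 and 0.92 in Ishikawa, Ishikawa-S33Y and SNGM (contrast 1.22, adjusted p = 0.00305). HES2, a transcriptional repressor of the HES family, rose from 4.85 and 4.05 to 9.87 and 10.2 CPM in HEC265, and POU5F1, the pluripotency factor gene, from 4.14 and 3.55 to 9.15 and 8.97 CPM. POU5F1 has near-identical pseudogenes, so that the assignment of its reads is uncertain. The contrasts of DDX11L2, ABCB1, HES2 and POU5F1 passed the threshold only in part of the alternatives, with adjusted p of up to 0.525, 0.215, 0.101 and 0.205, and each of them lost it without 1 or more of the 4 compared libraries. The rises of HES2 and POU5F1 within HEC265 had adjusted p of up to 0.0701 and 0.0874 without vehicle replicate 2.

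Differences by line were also present within the lists. IER3 rose by 0.92 in HEC265 and had -0.08 to -0.03 in the other lines (contrast 0.98, SE 0.14, adjusted p = 4.57e-04). CXCL8 rose by 0.84 and had -0.43 to -0.09 elsewhere (contrast 1.10, adjusted p = 0.0290). The CLK3 response exceeded the mean of the others by 1.04 (adjusted p = 0.00142), whereas the differences of CLK1 (0.37, SE 0.16, adjusted p = 0.292), CLK2 (0.04) and CLK4 (0.27) were not called. Of the p53 targets 4 differed upward, BTG2 among them (0.91, adjusted p = 0.00113), with -0.06 in Ishikawa, -0.23 in Ishikawa-S33Y and 0.40 in SNGM. Rises in the p53 list were not particular to HEC265. Of the 20 genes 8 were called higher in SNGM (median 0.41), 5 in Ishikawa-S33Y (median 0.14) and 1 in Ishikawa (median -0.01). No cholesterol gene differed, and in the integrated stress response list 8 of 19 differed downward, against 1.22% of all tested genes, among them ASNS (-1.26, adjusted p = 1.48e-05) and ATF4 (-0.68, adjusted p = 0.00382). ATF4 had -0.12 in HEC265, 0.01 in Ishikawa, 0.88 in Ishikawa-S33Y and 0.78 in SNGM, and ASNS had -0.51, 0.16, 0.87 and 1.2. Within the other lines' own comparisons 9 of the list were called higher in Ishikawa-S33Y (median 0.37), 12 in SNGM (median 0.61) and 0 in Ishikawa (median -0.01).

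**Figure D4:**
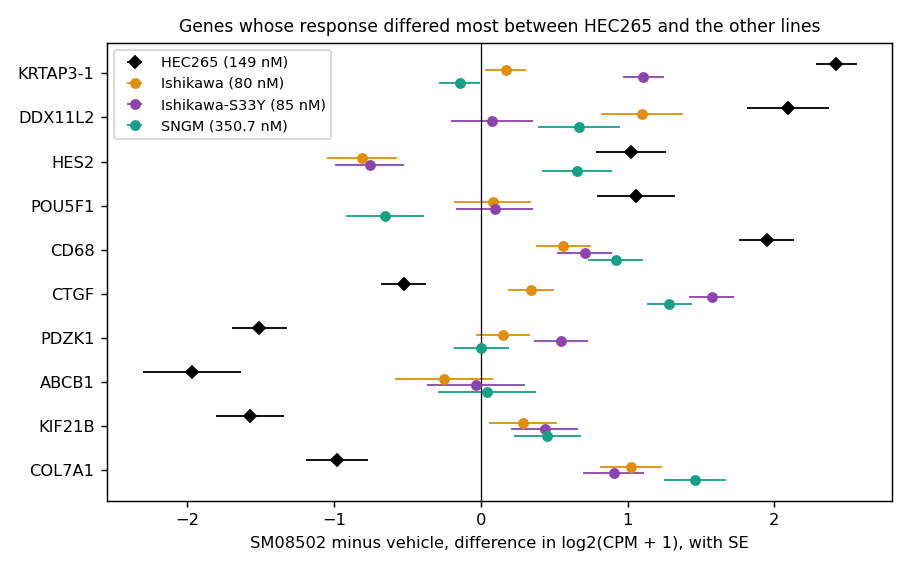
Log2 difference of SM08502 minus vehicle, with its SE as a bar, in HEC265 (black diamonds) and the other 3 lines (coloured circles) for the 5 genes with the largest positive and the 5 with the largest negative difference between HEC265 and the mean of the others. COL7A1 and CTGF lie below 0 in HEC265 (-0.98 and -0.53) and above 0 in the other lines.

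Genes that fell were longer in the genome than genes that rose. Among protein-coding genes with a RefSeq entry the median genomic span was 22.4 kb for calls upward, 53.9 kb for calls downward and 30.9 kb over all tested genes, and for calls of at least 2-fold it was 16.1 and 57.8 kb. In 5 bins of equal size by span, the percent called higher was 11.9, 12.3, 11.3, 8.57 and 4.60 from the shortest to the longest bin, and the percent called lower was 3.31, 3.71, 5.84, 6.76 and 10.0. On top of paclitaxel the longest bin had 3.71% higher and 11.5% lower. After re-centring the longest bin had 1.94% higher and 14.9% lower, and the shortest 6.79% and 4.96%. The median level, as mean log2(CPM + 1), ranged from 3.48 in the shortest bin to 4.95 in the fourth, and its part in the pattern was not tested. The bins were added after seeing the data and are a description with no test.

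**Figure D5:**
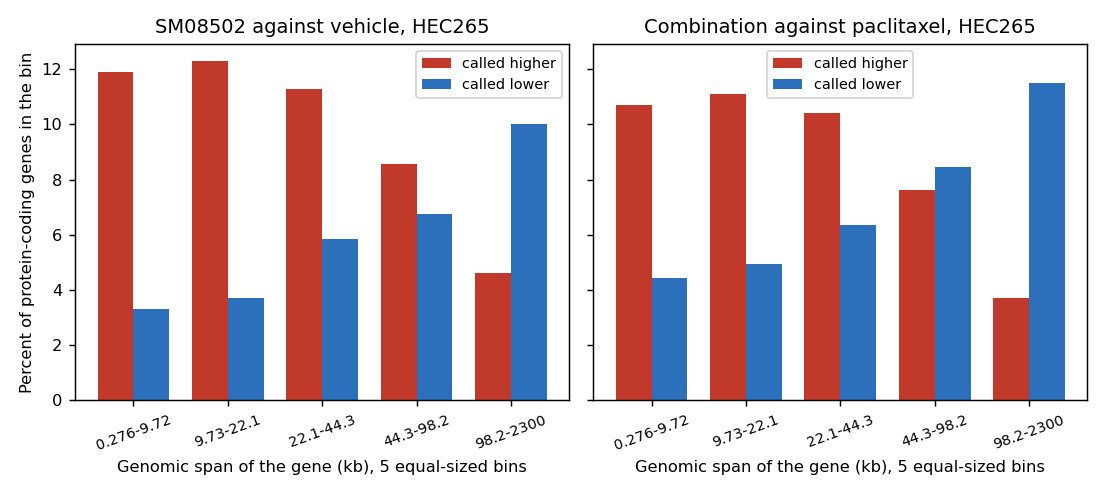
Percent of protein-coding genes called higher (red) or lower (blue) in 5 bins of genomic span, from the shortest to the longest, for SM08502 against vehicle (left) and the combination against paclitaxel (right) in HEC265. The percent called lower goes from 3.31 in the shortest bin to 10.0 in the longest on the left.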

How the data were processed

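RNA sequencing was analysed from 32 libraries of 4 endometrial cancer lines in 16 groups of 2; the 8 HEC265 libraries bear on the results here. Per the submitters' processing notes bcl2fastq, kallisto, STAR and GRCh38 were used; the annotation, the counting and its strand are not given in the sources used here. The deposited values are log10 of CPM + 1 per gene, a base and offset read from the values themselves, and were turned back into CPM; whole reads were recovered from the CPM steps for 100% of values (tolerance 0.01). Differences were tested with limma 3.58.1 (R 4.3.3) on log2(CPM + 1), with 1 mean per group over all 32 libraries and an intensity trend, for 17011 genes above 1 CPM in at least 2 libraries. Fold changes are on that scale, which understates changes of low genes. P-values were adjusted by the Benjamini-Hochberg method over all tested genes, and genes under 0.05 were called. The fit was tried on simulated counts with the same scatter in every group, unlike the real groups. Recovery of 2-fold falls narrowly missed the pass mark, which was loosened after this was seen. The fit was not changed.

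Named genes were 17 fixed ones, the 12 largest rises and falls (called, mean log2 level of at least 2, no overlap, clone names passed over), up to 3 called members per list and the 5 largest differences from the other lines each way. Other list members and neighbours were chosen after their values were seen, as were the promoters shown, the motif searches and the span bins. The members and lists were chosen with earlier results of these data known. Positions and promoters are from RefSeq (GRCh38.p14), in which 94.9% of tested genes had an entry. Of the 115 genes named by rule 52 overlap another gene. Alternatives changed the filter, pseudocount, scaling, trend, the samples that set the spread, the replicate block and the libraries; limma voom on recovered reads was added after seeing the data. Splicing tables were not analysed here, and some genes are not reported here by name, though they count in every total.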

Additional observations from a re-analysis of the deposited data

Results flagged for a closer look

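A group of named genes responded to SM08502 in HEC265 differently from the mean of Ishikawa, Ishikawa-S33Y and SNGM, by limma's test of the difference itself (adjusted p under 0.05 over all tested genes, 2 libraries per group). Values here are the HEC265 log2 difference minus that mean. The doses differ between lines, so that line and dose cannot be told apart.

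The HEC265 response was higher for CLK3 (1.04), KRTAP3-1 (2.04), DDX11L2 (1.48), CD68 (1.22), CXCL8 (1.10), ANKRD37 (1.03), HES2 (1.33) and POU5F1 (1.22). Smaller positive differences were found for CDKN1A (0.55), CXorf38 (0.60), BTG2 (0.91), DNAJB1 (0.40), IER3 (0.98), BIRC3 (0.77) and PIK3R1 (0.62). A difference from a mean can come from only some of the other lines. CDKN1A rose by 0.82 in HEC265 and by 0.88 in SNGM, with -0.18 in Ishikawa and 0.13 in Ishikawa-S33Y.

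It was lower for ABCB1 (-1.89), SCGB3A2 (-1.58), F3 (-1.07), THRB (-1.14), COL7A1 (-2.11), KIF21B (-1.97), PDZK1 (-1.74) and CTGF (-1.59). Smaller negative differences were found for VPS36 (-0.90), FOXJ1 (-0.97), HNRNPD (-0.70), CARS (-0.87), BCL2 (-0.62), FGFR2 (-0.68) and NR1D2 (-0.76). FOXJ1 had -2.10 in HEC265, -1.64 in Ishikawa and -1.92 in Ishikawa-S33Y, against 0.17 in SNGM, so its fall was not particular to HEC265.

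In CARS, IER3, CXCL8, COL7A1, KIF21B, PDZK1 and CTGF the HEC265 value had the opposite sign to that of each other line. The differences of DDX11L2, ABCB1, HES2 and POU5F1 fell short of the threshold without 1 or more of the 4 compared HEC265 libraries, and alternatives were run for this contrast only for the 5 largest differences in each direction.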

How the results depend on the processing

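The count of 2494 genes called for SM08502 against vehicle rose to 7026 with the spread taken from the HEC265 samples alone and to 6634 from the 4 compared libraries alone. It was 1057 to 1191 without 1 of the 4 libraries, where the lone sample of a group is assumed to vary like the other groups; the 1057 was without SM08502 replicate 2. Calls of at least 2-fold went from 276 to 507 with a pseudocount of 0.1, 723 with limma voom and 702 with voom and median-ratio scaling. For the combination against paclitaxel, 2538 became 7258 in HEC265 alone, 5093 in the 4 libraries alone and 985 to 1617 without 1 library. Differences from the other lines went from 442 to 706 with voom and median-ratio scaling and to 115 to 148 without 1 library. The interaction, 0 calls, gave 5 with no filter, 2 with a pseudocount of 0.1, 1 after quantile normalization and 0 to 1 without 1 library. The cause of these shifts was not tested.

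Replicate numbers did not pair the libraries: the correlation of same-numbered deviations was 0.094 between vehicle and SM08502, 0.328 between paclitaxel and the combination and -0.154 to -0.074 in the other pairs of groups. With the replicate block the counts were 2510, 2530, 383 and 0 in the order above, and 275 for 2-fold calls. Of 1847 single-gene values under alternatives 1603 kept direction and side of the threshold, 228 lost the call (156 of them without 1 library), 8 gained it, 8 uncalled values changed sign and 0 called values reversed. Of 107 named genes called, 60 were called in every alternative run. Of 1020 counts of list members under alternatives 329 moved by over 1.5 times. The count test listed in advance was not run; limma voom on recovered reads stood in for it.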

Other observations

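Genes next to some of the largest falls were called lower too, and were singled out after their values were seen. They were RNF157 near FOXJ1, given above, ABCD3, 10.5 kb from F3 (log2 -0.39, limma adjusted p = 0.0289), and LINC01057 and EFR3A, given below. Other falls had a higher neighbour. ZNF860, 100 kb from GPD1L, rose by log2 0.59 (adjusted p = 0.0226), and TMEM109, 1.02 kb from TMEM132A, by 0.37 (adjusted p = 0.0163). Most neighbours of the largest falls were not called. LINC01057, 74.6 kb from F3, went from a mean of 154 to 60 CPM (log2 -1.35, adjusted p = 0.0399, and up to 0.174 without 1 library), and EFR3A, 47.8 kb from HHLA1, from 199 to 94.4 CPM (log2 -1.07, adjusted p = 2.22e-05).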
